A study of Mus musculus with 4 samples.

Results

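The genes described here are those of the BBSome, of the GTPase that recruits it and of its chaperonin-like assembly factors. They were taken by symbol from the deposited tables, and all 10 were found (Bbs1, Bbs2, Bbs4, Bbs5, Bbs7, Bbs9, Ttc8, Arl6, Bbs10 and Mkks), out of 22311 symbols. RNA came from whole testes of male mice that were 24 days old. There were 2 samples of Rfx2-/- mice (mutant 1 and 2), in which a neomycin-resistance cassette replaces the exons for the DNA-binding domain in every tissue, and 2 control samples (control 1 and 2). The labels give the controls as wild type and the strain as DBA, whereas the study's methods give heterozygous controls and a mixed 129/s6 and C57BL/6 background, and the mutant line goes back to 1 embryonic stem cell clone. No other treatment was named for either genotype.

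The BBSome is a coat-like complex that rides on intraflagellar transport (IFT) trains and carries membrane proteins into and out of cilia. Arl6, a small GTPase, recruits it to membranes, and the chaperonin-like proteins Mkks, Bbs10 and Bbs12 assemble its core together with the chaperonin CCT. Inherited loss of these proteins causes Bardet-Biedl syndrome, and male mice that lack one of several of them form no sperm flagella. RFX2 is a transcription factor of spermatocytes and round spermatids that binds the X-box, a motif found near many ciliary genes. The comparison asks which of the BBSome genes differed in testes that lack RFX2.

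None of the 10 genes passed the test between genotypes, where 2.52% of all genes tested were called lower and 0.308% higher. The mean level of Ttc8 in mutant testes was 55.8% of that in control testes, that of Bbs7 60.6%, that of Bbs5 69.8% and that of Bbs2 71.0%. For 6 of the 7 subunits the higher mutant sample was below the lower control, an order that 15.2% of all genes tested also had. The remaining subunit, Bbs4, had a mutant mean at 93.8% of the control mean, and Arl6, Bbs10 and Mkks had mutant means between 103% and 113%, all 4 with groups that overlapped. Bbip1, also a BBSome subunit, is described with the partner genes and is left out of the median, sum and shares given for the 7 subunits. Levels are FPKM, a fragment density scaled for gene length and sequencing depth, and an adjusted p under 0.05 in limma on log2(FPKM + 1) over 12985 genes was the threshold.

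Rfx2 itself read 36.7 and 39.8 FPKM in mutants against 123 and 89.4 in controls, with a log2 fold change of -1.43 ± 0.19 (SE, limma adjusted p = 0.00617). The files held between 22553 and 22563 entries and between 12557 and 12942 genes at an FPKM of at least 1. Markers of testis cells were above 0 in every sample. Their sums ran from 2834 to 3288 FPKM for spermatocytes and from 29.7 to 47.0 for spermatogonia. Those of Sertoli cells ran from 509 to 759 (9 of 10 markers found), of Leydig cells from 134 to 417 and of macrophages from 13.1 to 21.3. Ldhc made up most of the spermatocyte sum and Clu most of the Sertoli sum in every sample. The Leydig marker Insl3 alone ran from 51.5 FPKM in control 2 to 326 in mutant 1. The 3 blood markers summed to 14.8 FPKM in mutant 1 and 26.5 in control 1. Their sum was 109 in mutant 2 and 120 in control 2. Hba-a1 and Hbb-b1 were both lower in the first pair, with Hbb-b1 near 0 there. Alas2 did not share this split, at 2.61 FPKM in mutant 1, 2.91 in control 1, 4.46 in mutant 2 and 2.18 in control 2. Of the markers of any list limma called 0. The 6 genes listed as elongating spermatid markers (Prm1, Prm2, Prm3, Tnp1, Tnp2 and Odf1) summed to 841 FPKM in mutant 1. This was far below the 5350 in mutant 2, the 7126 in control 1 and the 4691 in control 2. The study found elongating spermatids absent from the testes of older mutant mice, and this sum does not count such cells. In whole testes, fewer cells of a type and less RNA per cell cannot be told apart.

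X-boxes were searched within 1000 bases on each side of the annotated start in NCBIM37 (mm9), on both strands and with a gap of 0 to 3 bases between the arms. A match without mismatch lay near 2 of the 10 genes, Bbs1 and Ttc8, and near 4.60% of the 12726 tested genes with a start site. In Bbs1 and Ttc8 both mutant samples were below both controls, as in Bbs2, Bbs5, Bbs7 and Bbs9, which held no exact match. Any link between a match and a level was not tested. Both sites are shown. Each is written along the sense strand of its gene, with the span of the motif, gap included, in capitals. Positions count from 1 at the start base.
Bbs1, chr19:4906606-4906633, minus strand, motif from 2 to 15: tgagctgGTTGCCAAGGCGACgcctggg
Ttc8, chr12:100158515-100158541, plus strand, motif from -262 to -250: ccggatgGTTGCTAGGCAACtgcatct
The site of Bbs1 lies at the 5′ end of its first exon and that of Ttc8 upstream of its start. The RefSeq promoters of GRCm38.p6 span 250 bases before to 50 after a start, and 1.75% of 27025 symbols held an exact match there. Of the 10 genes Bbs1 held one, with the same letters as above, while the Ttc8 site, which begins at -262, would not lie whole in a window of that size.

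With 1 mismatch allowed in the 12 fixed positions, a match within 300 bases of the start was found for 7 of the 10 genes and for 22.0% of the tested genes. This combination was chosen after seeing the data. Of the lists described below, it gave a match for 61.1% of the IFT-B genes, 38.1% of the partners, 33.3% of the IFT-A genes and 11.1% of the CCT subunits. Matches of this looser kind are shown for the genes that lacked an exact one, 1 per gene. Their capitals include the mismatched letter.
Bbs4, chr9:59201272-59201299, minus strand, motif from 24 to 37: tcagctgGTCGCCCGGGAAACggtcggc
Bbs5, chr2:69485263-69485290, plus strand, motif from 43 to 56: ccggcgcGTTGCCTTGGCGCCcataaga
Bbs7, chr3:36512412-36512439, minus strand, motif from -33 to -20: cgccccgGTTGCCTTGGAAACcggccag
Arl6, chr16:59638979-59639006, minus strand, motif from 219 to 232: agctcccGTTGCCAAGGGAACgccgcgc
Bbs10, chr10:110735751-110735779, plus strand, motif from 24 to 38: cggaagcGTTACCCGTGGTTCCttaccca
Both mutants were below both controls for Bbs5 and Bbs7, whereas the mutant and control samples of Bbs4, Arl6 and Bbs10 overlapped. Bbs2, Bbs9 and Mkks had none within 300 bases, and a match is a description of letters and not of binding.

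Bbs2, Bbs7 and Bbs9 form the core that the chaperonins assemble first. Bbs7 was measured at 16.99 FPKM in mutant 1, 15.2 in mutant 2, 25.3 in control 1 and 27.7 in control 2. Both mutant samples lay well below both controls. The deposited confidence bounds of the mutant samples did not reach those of the controls, the highest mutant bound being 17.96 and the lowest control bound 24.1. Such bounds are given per sample and do not measure the spread between animals. They were also apart for Bbs1, Bbs2 and Ttc8. The log2 fold change of -0.69 ± 0.17 (SE, 95% interval -1.09 to -0.29) had the smallest p of the 10 genes (unadjusted p = 0.00407, limma adjusted p = 0.108). Robust eBayes in limma gave an adjusted p of 0.0394, so a call turned on the setting. No other setting that kept all 4 samples called Bbs7, with limma adjusted p up to 0.169. When a sample was left out, the log2 fold change ran from -0.77 to -0.61. In 5.71% of the genes tested the log2 fold change was as low or lower. Bbs7 lies on chromosome 3 from 36472064 to 36512399 (NCBIM37), with 4 annotated protein-coding transcripts.

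Bbs2 was at 10.9 FPKM in mutant 1 and 9.46 in mutant 2, with controls at 13.7 and 14.9. The groups did not overlap, and the log2 fold change of Bbs2 was -0.46 ± 0.19 (SE, unadjusted p = 0.0424, limma adjusted p = 0.521). Bbs9 was detected at 18.2 FPKM in mutant 1 and 15.7 in mutant 2, with controls at 18.5 and 21.8. For Bbs9 mutant 1 lay just below control 1, within each other's confidence bounds, and the 95% interval of the log2 difference ran from -0.66 to 0.19. Within the core, the ratio of Bbs7 to Bbs9 was 0.935 and 0.967 in mutants against 1.36 and 1.27 in controls. Scaling by a single factor per sample would not change this ratio, though quantile normalization can. The ratio of Bbs2 to Bbs9 lay closer together, at 0.598 and 0.604 against 0.741 and 0.683.

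Ttc8 and Bbs4 are the subunits built of tetratricopeptide repeats, and Bbs4 binds the centriolar satellite protein Pcm1. Ttc8 stood at 4.86 FPKM in mutant 1 and 4.01 in mutant 2, with controls at 7.03 and 8.87. The groups were apart, and the 2 controls differed from each other by more than the 2 mutants did. Its log2 fold change of -0.72 was the lowest of the 10 genes (SE 0.22, 95% interval -1.24 to -0.20, unadjusted p = 0.0132, limma adjusted p = 0.244). Bbs4 stood at 9.62 FPKM in mutant 1 and 7.94 in mutant 2, with controls at 9.50 and 9.23. Mutant 1 was the highest and mutant 2 the lowest of the 4 samples of Bbs4, and its log2 fold change was -0.09 (95% interval -0.56 to 0.38), which does not show that its level was the same. The ratio of Ttc8 to Bbs4 was 0.505 in both mutant samples, 0.740 in control 1 and 0.961 in control 2. Ttc8 is on chromosome 12 from 100158784 to 100221448 and Bbs4 on chromosome 9 from 59169773 to 59201315 (NCBIM37).

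Bbs1, the subunit that Arl6 binds, was at 6.39 FPKM in mutant 1 and 5.83 in mutant 2, with controls at 7.61 and 7.66. Its controls were nearly equal and above both mutants, and the log2 fold change of Bbs1 was -0.28 ± 0.20 (SE, 95% interval -0.75 to 0.19, limma adjusted p = 0.9999). Bbs1 is annotated on chromosome 19 from 4886898 to 4906627, with 17 exons.

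Bbs5, which binds phosphoinositides through its PH-like domains, was the subunit in which the mutant samples differed most from each other. It was measured at 14.3 FPKM in mutant 1, 25.1 in mutant 2, 27.8 in control 1 and 28.6 in control 2. Mutant 1 was at 50.6% of the control mean, while mutant 2 was at 89.0% and its upper confidence bound of 26.8 reached into the bounds of both controls. The log2 fold change of Bbs5 was -0.55 ± 0.25 (SE, 95% interval -1.14 to 0.04, limma adjusted p = 0.661). Without mutant 2 it was -0.93 (limma adjusted p = 0.00168), with 1 mutant sample assumed to vary like the controls, and without mutant 1 it was -0.16. The other subunits did not share this pattern, as their ratio of mutant 1 to mutant 2 lay between 1.10 and 1.21, against 0.569 for Bbs5. Of the genes tested, 7.67% had a ratio as low as that of Bbs5 or lower. On the log2 scale the ratio of the other subunits lay between 0.132 and 0.278. Its median over the tested genes above 0 in both mutants was 0.138, so mutant 1 read slightly higher in general. The 6 genes listed as elongating spermatid markers were also low in mutant 1. The 6 round spermatid markers summed to 459 FPKM there against 747 in mutant 2, 663 in control 1 and 549 in control 2. Within this sum Acr was not lowest in mutant 1, at 134 FPKM there and 114 in control 2. Crem differed little, at 53.7 FPKM in mutant 1 and 56.6 in control 2. Any link between these markers and the Bbs5 value was not tested.

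**Figure D1:**
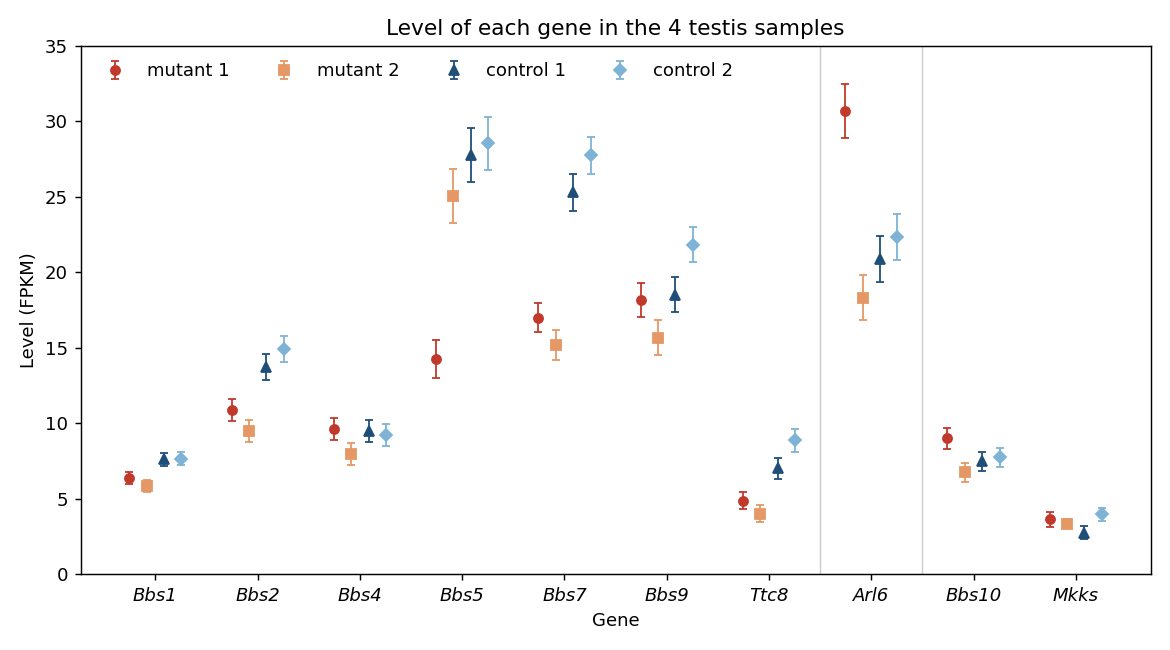
Level (FPKM, vertical axis from 0) of each gene in mutant 1, mutant 2, control 1 and control 2, with bars for the deposited confidence bounds. Bbs7, Ttc8 and Bbs2 have both mutant samples clearly below both controls, Bbs5 has mutant 1 alone far below at 14.3, and Arl6 has mutant 1 alone above at 30.7.

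Arl6 varied in the other direction. Its FPKM was 30.7 in mutant 1, 18.3 in mutant 2, 20.9 in control 1 and 22.3 in control 2. The controls lay between the 2 mutants, and the log2 fold change was 0.13 (95% interval -0.43 to 0.69, limma adjusted p = 0.9999). A ratio of mutant 1 to mutant 2 as high as that of Arl6, 1.68, was reached by 3.12% of the genes tested. The ratio of Arl6 to Bbs5 was 2.15 in mutant 1, whereas it was 0.731 in mutant 2, 0.753 in control 1 and 0.782 in control 2. Of the 10 genes, Arl6 had the highest and Bbs5 the lowest ratio of mutant 1 to mutant 2. The contrast between this pair follows from those values and is no separate result. Arl6 is annotated on chromosome 16 from 59612775 to 59639217 (NCBIM37).

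Among the chaperonin-like genes, Bbs10 was at 8.99 FPKM in mutant 1 and 6.75 in mutant 2, with controls at 7.47 and 7.75, so that both controls lay between the mutants. Mkks was at 3.63 FPKM in mutant 1 and 3.36 in mutant 2, both between the controls at 2.74 and 3.97. The log2 fold change of Bbs10 was 0.03 (95% interval -0.47 to 0.54). That of Mkks was 0.06 (95% interval -0.48 to 0.60), and both intervals still hold the value of Bbs2. Exons of Mkks share 172 bases with those of 2210009G21Rik on the opposite strand, and without a stated strand their reads cannot be told apart. Bbs12, the further chaperonin-like gene, was at 3.30 FPKM in mutant 1 and 2.91 in mutant 2, both above the controls at 2.49 and 2.82 (log2 fold change 0.17, limma adjusted p = 0.9999).

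**Figure D2:**
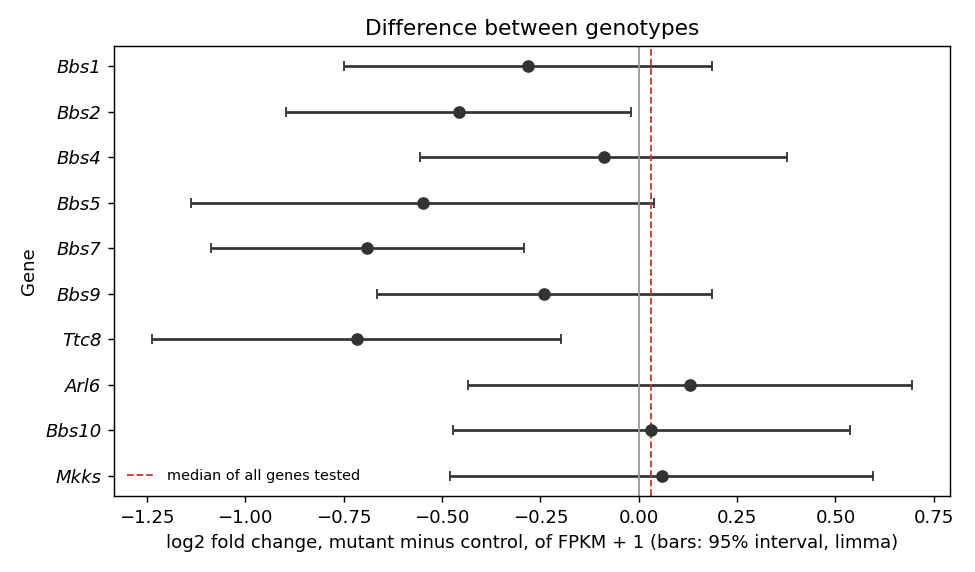
log2 fold change of FPKM + 1, mutant minus control (horizontal axis), for each gene, with 95% intervals from limma and a dashed line at the median of all genes tested, 0.03. All 7 subunits lie left of 0, while Arl6, Bbs10 and Mkks lie right of it, and the intervals of Bbs2, Bbs7 and Ttc8 leave out 0 before adjustment.

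Over the 10 genes, limma called 0 lower and 0 higher after adjustment, where 2.52% of all genes tested were called lower and 0.308% higher. At an unadjusted p under 0.05, 3 were lower (Bbs2, Bbs7 and Ttc8) and 0 higher, against 6.68% and 2.01% of all genes. The median log2 fold change was -0.26 for the 10 genes and -0.46 for the 7 subunits, beside 0.03 over all genes tested. The genes were chosen with earlier results of these data known, and these counts and medians are descriptions. With 2 samples of each genotype the test has 2 residual degrees of freedom of its own, and a gene that was not called was not shown to be unchanged.

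The levels of the subunits were unequal within each sample. In the control samples Bbs5 was highest at a mean of 28.2 ± 0.570 FPKM (SD, n = 2), followed by Bbs7 at 26.5 ± 1.73, Arl6 at 21.6 ± 1.03, Bbs9 at 20.2 ± 2.33 and Bbs2 at 14.3 ± 0.838. Bbs4 came next at 9.36 ± 0.189, then Ttc8 at 7.95 ± 1.31, Bbs1 at 7.63 ± 0.0348, Bbs10 at 7.61 ± 0.193 and Mkks at 3.36 ± 0.871. Arl6 and Bbs9 overlapped in their samples, as did Ttc8 with Bbs1 and Bbs1 with Bbs10, while the other neighbours in this order did not. Bbs5 stood above 76.4% of the genes tested and Mkks above 24.0%. In the mutant samples Arl6 had the highest mean, 24.5 ± 8.74 FPKM, and overlapped Bbs5 at 19.7 ± 7.64, and Bbs9 at 16.9 ± 1.76 overlapped Bbs7 at 16.1 ± 1.29. Ttc8 was ninth in the mutants, at 4.43 ± 0.603, below Bbs1 at 6.11 ± 0.395 without overlap.

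**Figure D3:**
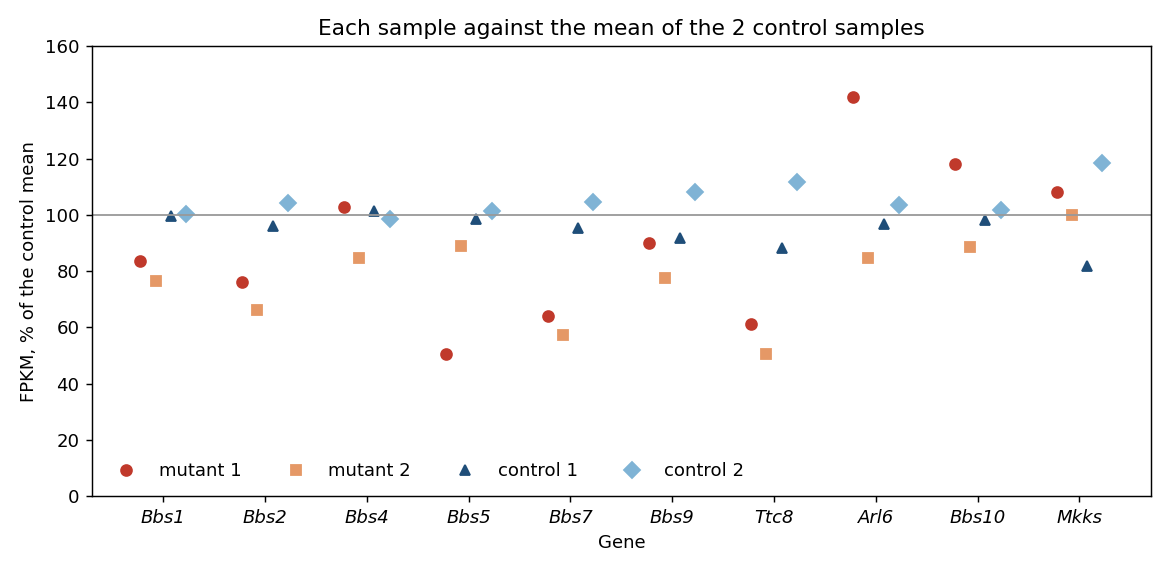
FPKM of each sample as a percentage of the mean of the 2 control samples (vertical axis), by gene. The mutant samples of Bbs7 lie at 64.1% and 57.2% and those of Ttc8 at 61.1% and 50.4%, while those of Bbs5 lie at 50.6% and 89.0%.

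The summed FPKM of the 7 subunits was 81.1 in mutant 1, 83.1 in mutant 2, 109 in control 1 and 119 in control 2. The sum in mutant testes was 72.0% of that in control testes, and the mutants differed from each other by less than from either control. The shares behind this sum differed between the mutants. Bbs5 made up 17.6% of it in mutant 1 and 30.1% in mutant 2, outside the 25.4% and 24.0% of the controls on both sides. The share of Bbs7 was 20.9% and 18.2% in the mutants and 23.1% and 23.4% in the controls. That of Bbs4, whose own level overlapped between genotypes, was higher in the mutants, at 11.9% and 9.55% against 8.68% and 7.77%. Bbs9 and Bbs1, whose own levels were lower in both mutants, also had higher shares there. These were 22.4% and 18.9% against 16.9% and 18.4% for Bbs9, and 7.87% and 7.01% against 6.95% and 6.44% for Bbs1.

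**Figure D4:**
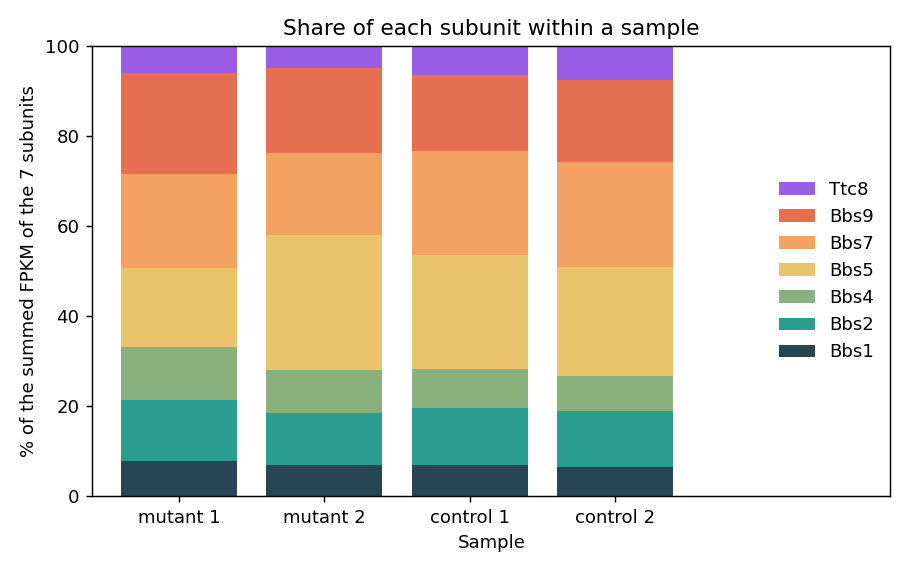
Share of each of the 7 subunits in their summed FPKM (vertical axis, 0 to 100%) in each of the 4 samples. Bbs5 takes 17.6% in mutant 1 and 30.1% in mutant 2, and Bbs7 and Ttc8 take smaller shares in both mutants than in both controls.

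The remaining genes of the pathway came from fixed lists. Over all genes tested, limma called 2.52% lower and 0.308% higher. Of 21 other Bardet-Biedl genes and BBSome partners, all tested, 1 was called lower and 0 higher in limma. This was Ift27, the small GTPase of the IFT-B complex that the BBSome needs to leave cilia, at 20.6 FPKM in mutant 1 and 16.6 in mutant 2, with controls at 35.2 and 33.9. Both mutants lay far below both controls, and Ift27 fell by 0.86 on the log2 scale (SE 0.18, limma adjusted p = 0.0478). The call lay close to the threshold and was lost with a pseudocount of 0.1, without a filter and with one at an FPKM of 5, with quantile normalization, with median-ratio scaling, without the trend in eBayes, with the crossed replicate block, without control 1 and without control 2. Hspb11, its binding partner, was at 27.2 FPKM in mutant 1 and 19.5 in mutant 2, with controls at 25.1 and 22.2, so that the groups overlapped.

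Bbip1, the smallest BBSome subunit, was at 23.8 FPKM in mutant 1 and 22.2 in mutant 2, both below the controls at 26.3 and 25.7 (log2 fold change -0.17, limma adjusted p = 0.9999). Lztfl1, which holds back the entry of the BBSome into cilia, was at 12 FPKM in mutant 1 and 11.7 in mutant 2, both below the controls at 14.3 and 17.2 (log2 fold change -0.38, limma adjusted p = 0.745). The highest log2 fold change of the list was that of Bbs12. Over the list the median was -0.17, and both mutants lay below both controls for 9 genes and above them for 2, against 15.2% and 16.3% of all genes tested. An X-box without mismatch lay within 1000 bases of the start of 4 of the 21 genes, shown here for comparison with those of Bbs1 and Ttc8.
Bbip1, chr19:54018929-54018957, minus strand, motif from 168 to 182: gttccccGTTACCCCAGGCAACagcagag
Lztfl1, chr9:123626886-123626914, minus strand, motif from -164 to -150: tttctctGTTGCCATTGGCAACggcaggc
Arl3, chr19:46647579-46647607, minus strand, motif from -25 to -11: cgcagcaGTTACCCCTGGTAACgggggag
Wdpcp, chr11:21472286-21472312, plus strand, motif from 56 to 68: cttcaccGTTGCTAGGCGACgaggcag
Arl3, a small GTPase that releases lipid-modified cargo in cilia, was at 140 FPKM in mutant 1, 192 in mutant 2, 191 in control 1 and 194 in control 2. Mutant 1 alone stood lower for Arl3, and mutant 2 lay between the controls. None of these 4 genes passed the test, and Ift27, which did, had no exact match.

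The CCT chaperonin subunits, which work with Mkks and Bbs10, showed a narrow spread. For all 9 of them the log2 fold change lay between -0.04 (Cct2) and 0.14 (Cct3), with a median of 0.02 and 0 called in either direction at an adjusted or unadjusted p under 0.05 in limma. Tcp1 was the most abundant, at 774 FPKM in mutant 1 and 683 in mutant 2, with controls at 756 and 676. Cct3 was at 286 FPKM in mutant 1 and 288 in mutant 2, with controls at 255 and 265, the only one of the 9 with both mutants above both controls. No CCT gene held an X-box without mismatch in the window.

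The IFT complexes, on which the BBSome travels, were set beside these lists. Of the 6 IFT-A genes 0 were called, the lowest being Wdr35 with a log2 fold change of -0.45 (limma adjusted p = 0.330) and the highest Ift140 with 0.03. Of the 18 IFT-B genes 1 was called lower, Ift27, which is also in the list above, and 2 were called higher, Ift74 and Ift81. Among all genes tested, 2.52% were called lower and 0.308% higher. Ift74, which binds tubulin together with Ift81, was at 188 FPKM in mutant 1 and 187 in mutant 2, with controls at 104 and 90.6 (log2 fold change 0.94, limma adjusted p = 0.0253). Ift81 was at 80.2 FPKM in mutant 1 and 69.7 in mutant 2, with controls at 44.5 and 39.4 (log2 fold change 0.82, limma adjusted p = 0.0453). Both mutants were thus well above both controls for this pair. The median was -0.08 for IFT-A and -0.19 for IFT-B, against -0.46 for the 7 BBSome subunits without Bbip1, and the difference between these lists was not tested.

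**Figure D5:**
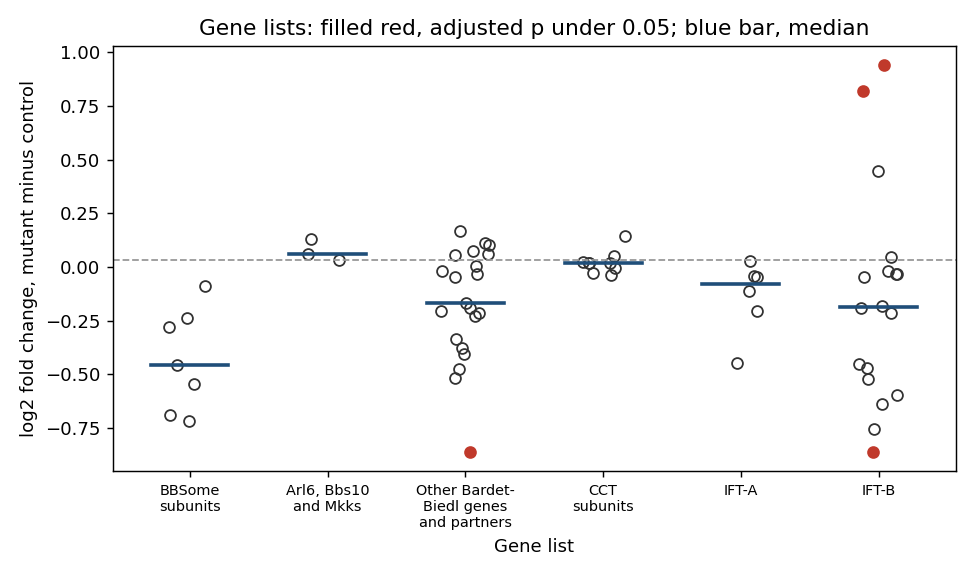
log2 fold change of FPKM + 1, mutant minus control (vertical axis), of each gene in 6 lists, with a bar at each median and the genes at an adjusted p under 0.05 filled. The 7 BBSome subunits spread from -0.72 to -0.09, whereas the 9 CCT subunits lie between -0.04 and 0.14, and the filled points are Ift27 in 2 lists and Ift74 and Ift81.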

How the data were processed

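RNA-seq reads of the 4 testis samples were mapped to mm9 by the authors (TopHat 2.0.6), who deposited Cufflinks FPKM per gene with confidence bounds. Scaling between samples was not seen in the files. The files hold FPKM and no counts, and the bounds of the 10 genes correspond to an estimated 159 to 2028 fragments per gene and sample.

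Entries sharing a symbol were summed, and the 10 genes had 1 entry each. Tested were genes reaching an FPKM of 1 in 2 or more samples, on log2(FPKM + 1), which understates changes of low genes, with limma 3.58.1 in R 4.3.3 (lmFit, eBayes with a trend, two-sided, Benjamini-Hochberg), after testing on simulated data. Tables were made in Python 3.11.15. Cuffdiff, which the study used, needs reads and was not rerun. Start sites came from GENCODE on NCBIM37, the assembly behind mm9.

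The genes and lists were chosen with earlier results of these data known. Named were the 10 genes, Rfx2 and the called, lowest and highest genes of each list, and further genes were picked after seeing their values. Rabl5 and 1700019E19Rik stand for Ift22 and Ift43, and the partner and IFT-B lists share Ift27, Hspb11 and Ift172. The alternatives varied pseudocount, filter, scaling, eBayes options, replicate blocks, samples left out, entries per symbol and the X-box search.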

Additional observations from a re-analysis of the deposited data

How the results depend on the processing

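With all 4 samples kept, the log2 fold changes of the 10 genes kept their sign under every alternative, and 0 were called higher. The number called lower was 0 except with robust eBayes, where it was 1 (Bbs7), and leaving out a sample gave 0 to 1, namely Bbs7 without mutant 1 and Bbs5 without mutant 2. When a sample was left out, the log2 fold change ran from -0.21 to 0.035 for Bbs4, from -0.23 to 0.49 for Arl6, from -0.15 to 0.22 for Bbs10 and from -0.15 to 0.26 for Mkks. Their signs turned without mutant 2 for Bbs4, without mutant 1 for Arl6 and Bbs10 and without control 1 for Mkks. The median of the 10 genes then ran from -0.32 to -0.18. A fit with 1 sample in a group assumes that it varies like the other group. The filter at an FPKM of 5 left Mkks out.

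Over all genes, 327 were lower and 40 higher. These numbers were 199 and 17 without a filter, 202 and 17 with a filter at an FPKM of 5, and 206 and 16 with median-ratio scaling. They ran from 167 (without control 1) to 948 (without mutant 2) and from 13 (without control 2) to 162 (without mutant 1) when a sample was left out. Robust eBayes gave 67 higher. Of the partner genes 1 was called, and 0 with a pseudocount of 0.1, no filter, a filter at 5, quantile normalization, median-ratio scaling, no trend in eBayes and the crossed replicate block, and 0 to 1 when a sample was left out. With 1 mismatch, 9 of the 10 genes had an X-box within 1000 bases, as had 47.9% of the tested genes, and 7 within 300, beside 22.0%, the latter a combination chosen after seeing the data. The cause of these changes was not tested.

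The replicate numbers mark no stated litter or day. After the group mean of each gene was taken off, the deviations of mutant 1 and control 1 had a correlation of -0.15 over 12985 genes. With the replicate block from the labels 525 genes were lower and 70 higher, and p-values of that fit are not reliable. That block and the crossed replicate block, chosen after seeing the data, each leave 1 residual degree of freedom and called 0 of the 10 genes. As the files hold no counts, precision of low genes such as Mkks rests on the deposited bounds.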
